A study of Mus musculus with 16 samples.

Results

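The TGF-beta and BMP pathway was followed through 47 genes coding for its ligands, receptors, SMAD proteins, inhibitors and latent TGF-beta binding proteins. Open chromatin had been profiled by bulk ATAC-seq, which maps accessible DNA by transposase insertion, in small cell lung cancer cells sorted from TKO;Hes1 GFP/+ mice, where TKO stands for the loss of Rb, p53 and p130 after Ad-CMV-Cre was given to the lungs. Both groups carried the same floxed alleles and the Hes1 GFP/+ reporter: GFP high cells were the Hes1-expressing, non-neuroendocrine (non-NE) cells, and GFP negative cells were the neuroendocrine (NE) cells of the same animals. The CMV promoter limits Cre to no particular lung cell type, and tumors of a mouse were pooled before sorting. The 8 libraries, 4 per group, came from 3 mice, with 2 pairs from mouse 524, and each was run on 2 lanes. Of the 80367 regions listed as differentially accessible between GFP high and GFP negative cells, 556 had the start site of 1 of the 47 genes as their nearest protein-coding start site. These 556 peaks are the subject here, and they were assigned by position only. A peak is called opened where it was more accessible in GFP high cells and closed where it was less accessible there.

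TGF-beta family ligands are secreted dimers, many of them held latent in the matrix, that bring type I and type II receptor serine/threonine kinases together. The activated type I receptor phosphorylates receptor SMADs, SMAD2 and SMAD3 for TGF-betas and activins and SMAD1, SMAD5 and SMAD9 for BMPs, which enter the nucleus with SMAD4. Inhibitory SMADs, ubiquitin ligases and corepressors damp the signal inside the cell, and secreted antagonists trap ligands outside it. In the lung epithelium the pathway is known for its part in branching, in basal and airway cell differentiation, and in growth arrest.

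Every listed peak had already passed a log2 fold limit of 1 and an adjusted p limit of 0.001, so presence in a list is a description and was not tested again. The level of a peak was a single mean normalized count over all libraries, with no value per sample, so no spread between samples stands behind the levels below. A gene's highest peak is the one with the highest mean count, which grows with peak width, and for some peaks the level per kb of width is given as well. As a check of the direction, 7 of 8 NE marker genes had a closed promoter peak (background 8.46% of coding genes) and none had an opened one. Of the non-NE marker genes, Hes1, Rest and Notch2 among them, 6 of 6 had an opened promoter peak (background 26.7%) and none a closed one. Hes1 is the locus of the GFP reporter used for sorting, so it is no independent check. Over all its listed peaks, the NE marker Chga had 8 opened and 6 closed. Markers of other cell types were read by all their listed peaks, where 50.8% of all listed peaks were opened. Endothelial markers held 32 opened and 63 closed peaks, fibroblast markers 10 and 18, and leukocyte markers 16 and 12. Single genes gave large parts of these counts. Cdh5 had 23 of the closed endothelial peaks, Col1a1 7 of the opened fibroblast peaks and Ptprc 11 of the opened leukocyte peaks. By promoter, 2 endothelial, 1 fibroblast and 1 leukocyte marker genes had an opened peak, and as many of each type had a closed one. Tumor cells were stained for CD45, CD31 and TER-119 before sorting, which mark leukocytes, endothelial cells and red blood cells. How far such cells were removed was not measured here, and the part of any other cell type in the results below was not tested. Because the samples were bulk populations, a change in the number of cells of a type and a change in accessibility per cell cannot be told apart.

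Stretches of 8 listed peaks, up to 200 bases each, show the kinds of element counted below: closed promoter peaks, promoter peaks of an opened receptor and an opened inhibitory SMAD gene, and distal peaks, closed and opened, with high counts per kb of width. They were read from the plus strand of mm10 (GRCm38, RefSeq sequence). Capitals mark exact matches, on either strand, to short motif strings that are spelled out further on. For 5 of them this is the centre of the peak. The Fst, Tgfbr1 and Smad6 stretches were moved off the centre to leave out untranslated bases, and the Fst stretch, which was also shortened, does not hold the centre of its peak.
Fst promoter, closed, chr13:114458432-114458586: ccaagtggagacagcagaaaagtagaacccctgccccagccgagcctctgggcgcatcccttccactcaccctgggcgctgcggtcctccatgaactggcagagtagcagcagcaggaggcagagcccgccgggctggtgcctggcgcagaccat
Bmp7 promoter, closed, chr2:172940398-172940597: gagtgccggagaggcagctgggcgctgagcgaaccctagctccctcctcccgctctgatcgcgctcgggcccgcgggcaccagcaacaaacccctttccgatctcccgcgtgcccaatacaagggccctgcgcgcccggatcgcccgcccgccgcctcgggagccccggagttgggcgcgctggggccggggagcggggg
Tgfbr1 promoter, opened, chr4:47353312-47353511: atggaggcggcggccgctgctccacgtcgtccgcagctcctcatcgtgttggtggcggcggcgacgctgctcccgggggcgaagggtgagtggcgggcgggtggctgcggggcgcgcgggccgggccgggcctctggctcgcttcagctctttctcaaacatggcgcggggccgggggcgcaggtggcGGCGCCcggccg
Smad6 promoter, opened, chr9:64022060-64022259: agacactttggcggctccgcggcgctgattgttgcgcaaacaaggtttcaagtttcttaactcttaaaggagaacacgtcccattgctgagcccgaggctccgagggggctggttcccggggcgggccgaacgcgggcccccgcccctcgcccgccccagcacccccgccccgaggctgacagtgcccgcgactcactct
Acvr2a upstream peak, closed, chr2:48678987-48679186: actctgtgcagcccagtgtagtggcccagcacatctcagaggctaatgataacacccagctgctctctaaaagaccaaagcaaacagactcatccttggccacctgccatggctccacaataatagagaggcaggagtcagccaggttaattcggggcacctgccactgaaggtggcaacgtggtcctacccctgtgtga
Bmp3 upstream peak, closed, chr5:98844228-98844427: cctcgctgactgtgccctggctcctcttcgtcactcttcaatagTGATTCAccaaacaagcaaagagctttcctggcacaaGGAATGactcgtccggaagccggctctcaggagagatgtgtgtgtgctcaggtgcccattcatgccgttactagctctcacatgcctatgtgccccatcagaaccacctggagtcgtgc
Bmpr1b intronic peak, opened, chr3:142125711-142125910: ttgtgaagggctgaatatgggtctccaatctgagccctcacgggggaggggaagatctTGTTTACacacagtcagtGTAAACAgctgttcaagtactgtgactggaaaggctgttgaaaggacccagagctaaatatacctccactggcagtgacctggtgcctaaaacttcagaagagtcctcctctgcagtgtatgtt
Inhbb downstream peak, opened, chr1:119295233-119295432: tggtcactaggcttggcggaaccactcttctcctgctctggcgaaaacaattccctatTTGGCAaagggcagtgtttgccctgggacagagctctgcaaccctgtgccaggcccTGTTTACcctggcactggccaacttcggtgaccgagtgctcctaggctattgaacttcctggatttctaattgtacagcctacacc

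The Tgfbr1 stretch runs from coding sequence of the first exon into the first intron. The Fst stretch, read on the strand of the gene, does the same and lies downstream of the start site. The Fst, Bmp7, Smad6 and Acvr2a stretches held none of the 7 strings, the Bmp3 stretch held an AP-1 and a TEAD string, and the Inhbb stretch a FOX string and an NFI half-site.

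Across the pathway, opened peaks were more numerous than closed peaks. Of the 556 peaks, 361 were opened and 195 closed, which is 64.9% opened (Wilson 95% interval 60.9 to 68.8, covering counting of peaks only), where 50.8% of all 80367 listed peaks were opened. By gene, 33 of the 43 genes with any listed peak had more opened than closed peaks (76.7%) and 10 had more closed peaks, against 54.9% with more opened peaks among all 14579 protein-coding genes with a peak. At least 1 opened peak was found at 41 of 47 genes (87.2%, background 52.3% of 21827 protein-coding genes) and at least 1 closed peak at 33 of 47 (70.2%, background 42.2%). Both kinds occurred at 31 genes. The 10 genes with opened peaks only were Smad6, Smad3, Ltbp2, Ltbp3, Acvrl1, Bmpr2, Gdf15, Smurf2, Tgfb1 and Acvr2b, and the 2 with closed peaks only were Bmp7 and Smad9. Nog, Chrd, Eng and Gdf11 had no listed peak.

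The pathway genes lay in larger gaps between start sites than most genes. The median stretch of genome nearer to a gene's start site than to any other coding start was 165.4 kb for the 47 genes and 47.4 kb over all coding genes. The median number of listed peaks was 9 per pathway gene and 1 per coding gene. Counted per Mb of such territory, pathway genes had 32.0 opened and 17.3 closed peaks, and the whole genome 15.0 opened and 14.5 closed. The excess over the genome-wide density was thus larger for opened than for closed peaks.

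**Figure D1:**
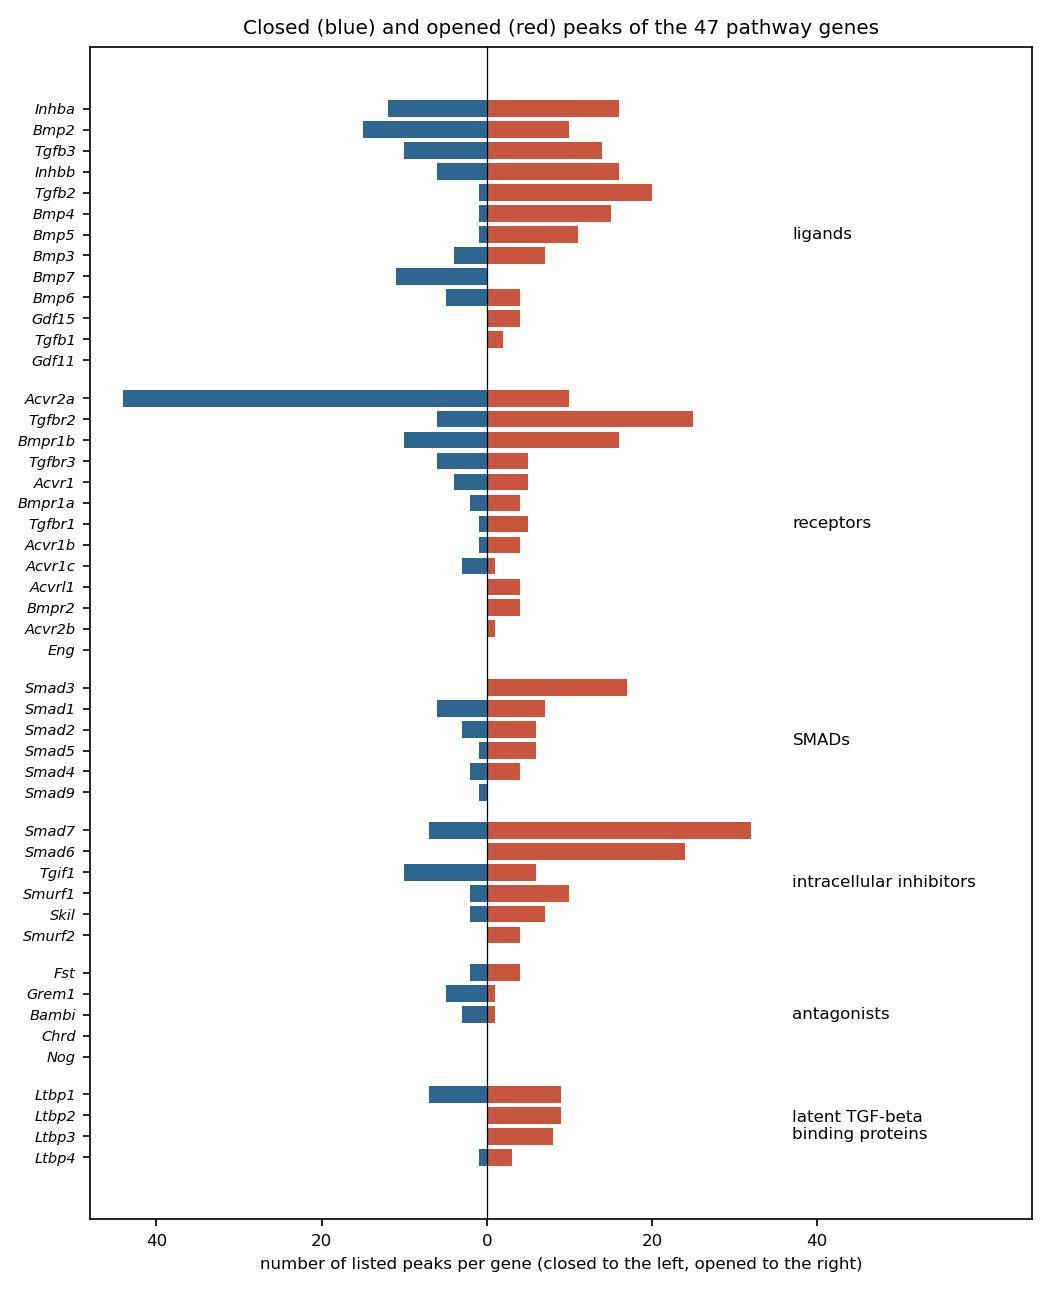
Number of closed peaks (blue, leftward bars) and opened peaks (red, rightward bars) at each of the 47 genes, grouped by role and ordered by total within a role. Acvr2a has the longest closed bar with 44 peaks and Smad7 the longest opened bar with 32, and Smad3 and Smad6 have opened bars only.

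Ligand genes held 119 opened and 66 closed peaks (64.3% opened), and 9 of the 12 with a peak had more opened ones. The TGF-beta ligands themselves differed in the placing of their elements. Tgfb1, the main isoform of inflammation and immune control, had 2 opened peaks, 1 of them on its start site with a mean normalized count of 173, and no closed peak. Tgfb2 had 20 opened peaks and 1 closed peak, none of them within 1 kb of its start site. All of its opened peaks lay downstream of the start, from 30.9 to 292 kb away, and 17 of the 20 were outside any protein-coding gene. The highest of them, 261 kb from the start, had a mean count of 380 (596 per kb of peak width). Tgfb3 had 14 opened and 10 closed peaks packed into 123 kb, and the neighbouring gene Ttll5 contained 12 of the opened and 8 of the closed ones. Its start site was under an opened peak with a count of 66.9, and the highest peak, opened and 89.9 kb away, had a count of 143 (235 per kb), while an opened peak 2.59 kb away was higher per kb of width (327). Along the Tgfb3 stretch, 12 of 23 neighbouring pairs of peaks belonged to the same list, so opened and closed elements were mixed, where 73.3% of the 513 neighbouring pairs at pathway genes and 74.8% of the 65724 such pairs at all genes belonged to the same list. At Bmp3, 4 of 10 pairs did so.

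BMP ligand genes were split. Bmp4, a ligand with broad roles in lung budding, had 15 opened peaks and 1 closed peak, and 11 opened peaks with no closed one lay within 67.8 kb around the gene. The peak on its start site had a count of 143 and the highest, 3.1 kb inside the gene, one of 228. Bmp5 had 11 opened peaks and 1 closed peak at low levels, the highest with a count of 70.5 and the one on the start site with 22.6. Bmp7 went the other way, with 11 closed peaks and no opened one. Of these, 9 formed 1 run of 26.9 kb from the start site into the gene, and both Bmp7 peaks within 1 kb of the start, with counts of 75.3 and 13.8, were closed. Among all 2055 coding genes with at least 11 listed peaks, 217 (10.6%) had closed peaks only and 93 (4.53%) had opened peaks only. Of the 20 pathway genes at that size, Bmp7 was the only one with closed peaks alone, and Smad6 and Smad3 were those with opened peaks alone. The Bmp7 promoter sequence printed above, on the upstream side of the start, had a GC content of 75.0%.

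Bmp2 had 10 opened and 15 closed peaks in a territory of 804 kb, all of them outside protein-coding genes. The highest, an opened peak 53.2 kb upstream with an AP-1 string, had a count of 259, and the nearest peak lay 5.03 kb from the start. Its outermost peaks were closed, 246 kb upstream and 451 kb downstream. At Bmp3, which codes for a BMP with inhibitory activity, 7 opened and 4 closed peaks lay upstream of or on the start site. The closed peak printed above, 10.1 kb upstream, was the highest there (count 138), while the opened peak on the start site had a count of 30.2. Bmp6 had 4 opened and 5 closed peaks, none within 1 kb of its start.

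The activin subunit genes Inhba and Inhbb both had more opened than closed peaks. Inhba had 16 opened and 12 closed peaks spread over a territory of 1117 kb, with its nearest opened peak 70.2 kb away and a closed one 3.99 kb upstream. The highest was a closed peak 169 kb downstream with a count of 126. The far end of that territory, 747 to 817 kb downstream, held 7 opened peaks and no closed one. Inhbb had 16 opened and 6 closed peaks, and 13 of the 22 fell in a 53.2 kb stretch 100.2 to 153 kb downstream, 9 opened and 4 closed. The highest Inhbb peak, printed above, lay in that stretch at 127 kb, was opened, and had a count of 287 (729 per kb), against 79.8 (376 per kb) for the opened peak at its promoter. Gdf15, a divergent family member induced by stress, had 4 opened peaks within 2.22 kb of its start site, the highest with a count of 211.

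**Figure D2:**
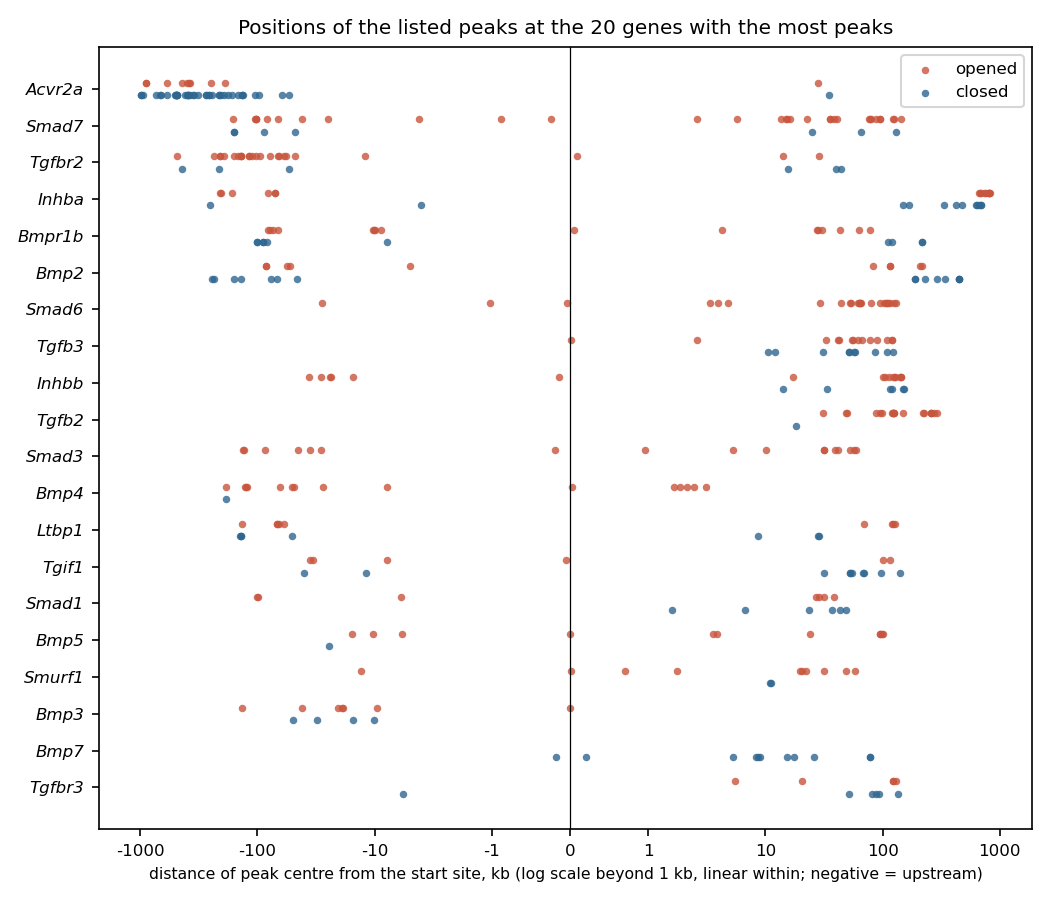
Distance of each listed peak from the start site, in kb on an axis that is linear within 1 kb and logarithmic beyond, for the 20 genes with the most peaks; opened peaks are red and closed peaks blue. Closed peaks of Acvr2a reach 978 kb upstream, those of Bmp7 begin on the start site, and Smad3 and Smad6 show opened peaks alone.

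Receptor and co-receptor genes came closest to an even split, with 84 opened and 77 closed peaks (52.2% opened), and 1 gene supplied most of the closed ones. Acvr2a, an activin type II receptor, had 44 closed and 10 opened peaks, the most of any pathway gene. Its territory of 1.92 Mb was mostly an upstream region without protein-coding genes. Between 502 and 54.2 kb upstream of the start, 42 peaks lay in succession with gaps of at most 50 kb, 36 of them closed. The highest, a closed peak 105 kb upstream with an AP-1 string, had a count of 188 (326 per kb), and the closed peak printed above, 135 kb upstream, had a lower count of 155 but more per kb (513). The nearest listed peak lay 28.2 kb from the Acvr2a start site and the farthest 978 kb away. Nearest-start assignment over such distances does not show that a peak acts on Acvr2a. Without Acvr2a, 69.9% of the pathway peaks were opened.

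At the TGF-beta receptor genes Tgfbr2 and Tgfbr1 opened peaks were the more numerous ones, but not at the co-receptor gene Tgfbr3. Tgfbr2, the type II receptor that binds TGF-beta, had 25 opened and 6 closed peaks. Of its 31 peaks, 29 lay in a single 277 kb stretch, and 22 of the 25 opened ones were upstream. The peak on its start site had the highest count, 246 (279 per kb), while an opened peak 48.2 kb away on the upstream side had 241 (547 per kb). The farthest lay 486 kb away. Tgfbr1, the type I partner, had 5 opened peaks and 1 closed peak. The opened peak on its start site had a count of 1184 and the highest level per kb of the pathway promoter peaks, 1243. Its other peaks ended 25.1 kb from the start. Tgfbr3, which codes for the co-receptor betaglycan, had 5 opened and 6 closed peaks, at distances of 5.52 to 136 kb, and its highest was an opened intronic peak 122 kb downstream with a count of 418.

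The BMP type I receptor gene Bmpr1b had 16 opened and 10 closed peaks. Inside the gene itself lay 11 opened and 2 closed peaks, while the neighbouring gene Unc5c held 4 closed peaks and Pdlim5 held 4 closed and 1 opened. The opened intronic peak printed above, 43.4 kb from the nearest Bmpr1b start, had a count of 385 (656 per kb) and held 2 FOX strings, and the opened peak on a start site had a count of 109. Bmpr1a had 4 opened and 2 closed peaks with none within 1 kb of a start. Bmpr2, the BMP type II receptor gene, had 4 opened peaks, all upstream and the nearest 1.01 kb from the start. At the activin receptor genes, Acvr1b had 4 opened peaks and 1 closed one with an opened promoter peak of count 458, Acvr2b had a single peak, opened, on its promoter with a count of 515, and Acvr1c had 1 opened and 3 closed peaks. Acvr1 had 5 opened and 4 closed peaks. Its highest, a closed intronic peak 13.9 kb from the nearest start, had a count of 273, and its only promoter peak was opened with a count of 6.32. Acvrl1, a type I receptor best known in endothelium, had 4 opened peaks, with 13.6 counts on the start site and 275 at the highest, 11.6 kb away.

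SMAD genes held 40 opened and 13 closed peaks (75.5% opened). Smad3, a receptor SMAD of the TGF-beta branch, had 17 opened peaks and no closed one. The peak 194 bp upstream of its start had a count of 480 (682 per kb), and the farthest lay 132 kb away. Next to it on the same chromosome lies the territory of Smad6, the BMP-branch inhibitory SMAD, with 24 opened peaks and no closed one. Its promoter peak, part of which is printed above, had its highest count, 357 (699 per kb), while per kb of width the peak 1.04 kb upstream was higher (841 per kb, count 347). The farthest lay 131 kb downstream of the start. From 100 kb beyond one gene to 100 kb beyond the other (chr9:63546767-64122059) there were 57 listed peaks, 57 of them opened and 0 closed, nearest to Aagab, Iqch, Lctl, Smad3 or Smad6.

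Smad2, the other receptor SMAD of the TGF-beta branch, had 6 opened and 3 closed peaks, and the opened peak on its start site had the highest count of all pathway peaks, 1215 over a width of 1440 bp (844 per kb). Smad5 had 6 opened peaks and 1 closed peak, with an opened promoter peak of count 370. Smad1 had 7 opened and 6 closed peaks at distances of 1.59 to 102 kb, all 6 closed ones inside the gene, and its highest was a closed intronic peak 49.1 kb from the start with a count of 181. Smad4, the shared partner, had 4 opened and 2 closed peaks, none within 1 kb of a start. Smad9 had 1 closed peak, inside the gene, with a count of 31.0.

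The intracellular inhibitors and corepressors stood highest of the 6 roles in opened share, with 83 opened and 21 closed peaks (79.8%). Smad7, the inhibitory SMAD induced by TGF-beta, had 32 opened and 7 closed peaks, and 36 of the 39 lay in 1 stretch of 251 kb. Neighbouring genes contained many of them, since 9 opened and 2 closed peaks were inside Ctif and 6 opened and 3 closed peaks inside Dym. The farthest lay 161 kb from the start. Both Smad7 promoter peaks were opened, with counts of 349 and 247. Smurf1, a ubiquitin ligase acting on receptors and SMADs, had 10 opened and 2 closed peaks, and its promoter peaks had counts of 272 and 208, both opened. The related Smurf2 had 4 opened peaks with 407 counts at its promoter. Skil, which codes for the SMAD corepressor SnoN, had 7 opened and 2 closed peaks, the nearest opened one 1.25 kb from the start. Tgif1, a corepressor with a homeodomain, was the exception of the group with 6 opened and 10 closed peaks. Dlgap1 contained 8 of the closed peaks. The peak on a Tgif1 start site was opened, with a count of 50.4, and the farthest lay 140 kb away.

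The secreted antagonists and the pseudoreceptor gene Bambi had few peaks, 6 opened and 10 closed (37.5% opened). Fst, which codes for the activin-binding protein follistatin, had a closed peak on its start site with a count of 82.2 (240 per kb), the highest closed promoter peak of the pathway. Its 4 opened peaks lay 47.0 to 126 kb upstream. Grem1, a BMP antagonist, had 5 closed peaks and 1 opened one, including a closed peak of count 13.5 on its start site, and 3 of the closed ones lay inside Fmn1. Bambi had 1 opened and 3 closed peaks, the highest a closed one 259 kb away with a count of 325. The BMP antagonist genes Nog and Chrd had none.

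Latent TGF-beta binding proteins, which tether the latent ligand to the matrix, had 29 opened and 8 closed peaks (78.4% opened), and 4 of 4 genes had more opened ones. Ltbp3 had 8 opened peaks and no closed one within 8.71 kb of its start, 4 of them within 1 kb of a start, a density of 403 peaks per Mb of territory. Their counts ran from 19.1 to 86.6, and per kb of width from 104 to 311. Ltbp2 had 9 opened peaks, 2 of them at its promoter with counts of 104 and 8.70. Ltbp4 had 3 opened peaks and 1 closed one, and the opened intronic peak 2.62 kb from a start had a count of 487 (680 per kb), against 160 (324 per kb) at its promoter. Ltbp1 had 9 opened and 7 closed peaks, 8.58 to 141 kb from the nearest start. Its highest was an opened intronic peak with a count of 211 (334 per kb), 128 kb downstream of a start site inside the gene. Another opened intronic peak, 67.7 kb upstream of such an internal start, had a count of 184 (374 per kb).

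Promoters, taken as the 1 kb on either side of a gene's own start sites, were mostly opened where they were listed. Of 38 promoter peaks, 34 were opened and 4 closed (89.5% opened, where 74.3% of all listed peaks within 1 kb of a start were opened). An opened promoter peak was found at 25 of the 47 genes (53.2%, background 26.7% of coding genes) and a closed one at 3 of 47, Bmp7, Fst and Grem1 (6.38%, background 8.46%). By role, the opened ones were at 7 ligand, 7 receptor, 3 SMAD, 5 intracellular inhibitor and 3 latent-binding-protein genes. Mean counts of opened promoter peaks ran from 6.32 at Acvr1 to 1215 at Smad2, and those of the 4 closed ones from 13.5 to 82.2. Levels of this kind reflect all libraries together and say nothing of the size of the difference between groups.

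**Figure D3:**
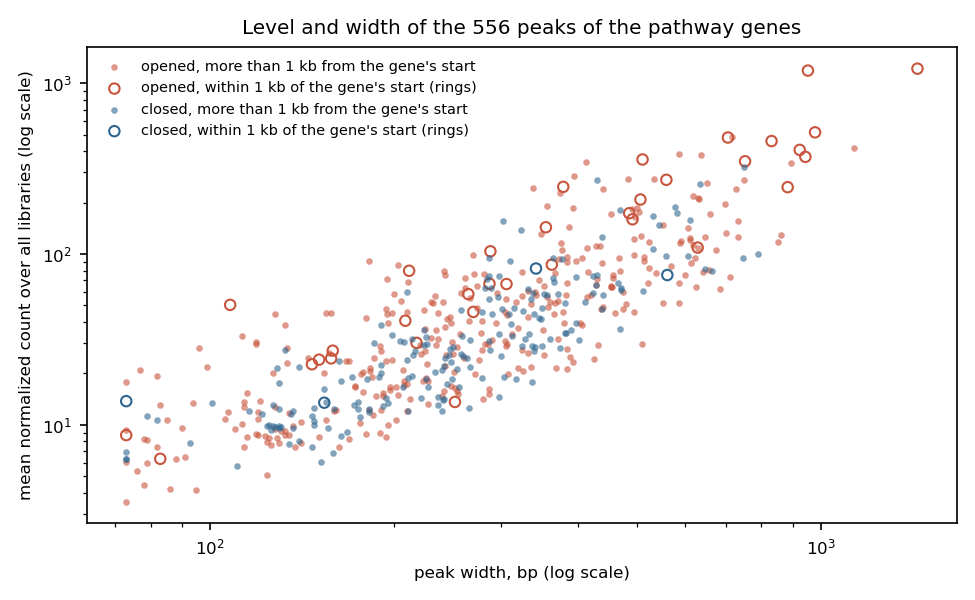
Mean normalized count over all libraries against peak width, both on log axes, for the 556 peaks (red opened, blue closed), with peaks within 1 kb of the gene's own start drawn as rings. The Smad2 and Tgfbr1 promoter peaks stand highest at 1215 and 1184 counts, and the 4 closed promoter peaks lie at or below 82.2.

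Most peaks lay far from promoters. The median distance to the start was 44.4 kb for opened and 87.6 kb for closed pathway peaks, against 17.5 and 42.4 kb over all listed peaks. Distances over 100 kb were found for 28.3% of opened pathway peaks and 47.2% of closed ones, where the shares over all listed peaks were 13.5% and 28.9%. Acvr2a carried much of the distance of the closed peaks. Without it, an alternative added after seeing the data, the medians were 42.4 kb for opened and 52.7 kb for closed pathway peaks, and 26.5% and 34.4% lay over 100 kb away. In the ligand, SMAD and antagonist genes the closed peaks had the shorter median distance. Since closed peaks were the more distant ones over all listed peaks, the share of opened peaks was also read within distance ranges. Up to 1 kb it was 89.5% of 38 pathway peaks and 74.3% of all listed peaks. From 1 to 10 kb it was 79.1% of 67 peaks against 58.8%, from 10 to 100 kb 66.9% of 257 against 49.6%, and beyond 100 kb 52.6% of 194 against 32.5% (64.1% of 145 without Acvr2a). The pathway share was the higher one in each of the 4 ranges. Peaks of 1 gene share a neighbourhood and are not independent, and no test was made of these shares.

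**Figure D4:**
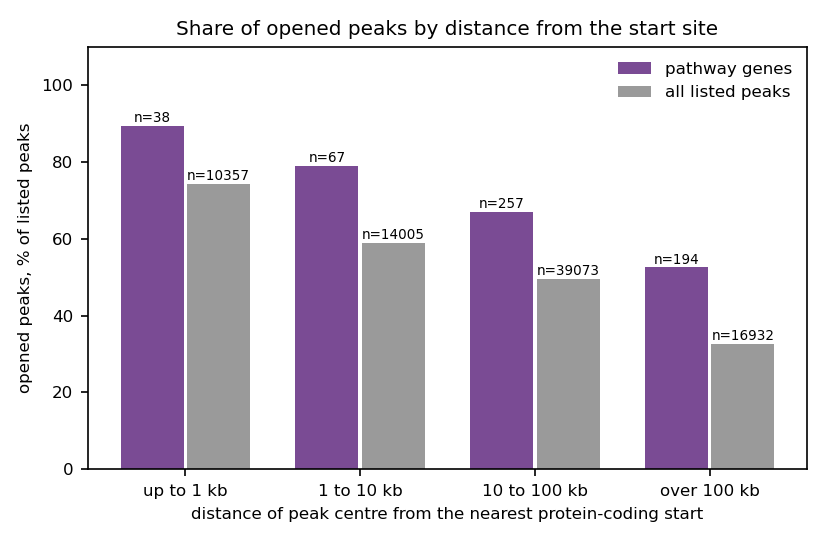
Opened peaks as a percentage of listed peaks in 4 ranges of distance from the nearest protein-coding start, for the pathway genes (purple) and all listed peaks (grey), with the number of peaks above each bar. Both fall with distance, from 89.5% to 52.6% for the pathway and from 74.3% to 32.5% for all listed peaks.

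Of the opened pathway peaks, 142 (39.3%) lay inside the gene they were assigned to, 33 (9.14%) inside another protein-coding gene and 186 (51.5%) outside such genes. Among closed peaks 48 (24.6%), 35 (17.9%) and 112 (57.4%) did so. Peaks inside another gene, above all those of Tgfb3 in Ttll5, of Smad7 in Ctif and Dym, of Tgif1 in Dlgap1 and of Bmpr1b in Unc5c and Pdlim5, were nearer to the start of the pathway gene than to that of the gene they lay in, and which of the genes they act on was not measured. Pathway peaks resembled listed peaks in general in width and level. Opened pathway peaks had a median width of 271 bp and closed ones of 256 bp, against 300 and 248 bp over all listed peaks. The median count per kb was 142 and 106, against 144 and 108.

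Short strings known from binding sites of relevant factors were counted on both strands of the 200 bp around the centre of each peak. As 178 of the 556 pathway peaks (32.01%) and 30.9% of all listed peaks were narrower than this, the window ran past the edges of such peaks, and some matches lie beside a peak rather than in it. They were TGANTCA for AP-1, TGTTTAC for FOX factors, CATTCC for TEAD, CAGACA for SMAD2/3/4, GGCGCC for SMAD1/5, CACTTGA for NKX2 and TTGGCA, an NFI half-site. A match is a description of letters and not evidence of binding. The SMAD2/3/4 string was in 13.6% of opened and 21.5% of closed pathway peaks, against 14.5% of all opened and 22.2% of all closed peaks. For the SMAD1/5 string the shares were 4.43% and 2.05%, against 5.22% and 2.23%. With all distances pooled, peaks of the pathway's own genes thus held its SMAD strings about as often as listed peaks in general. Among peaks over 1 kb from any start, the SMAD1/5 string was in 3.50% of opened pathway peaks, against 2.16% of all opened. In closed ones it was in 1.08% against 1.37%. The SMAD2/3/4 string was in 14.3% of such opened pathway peaks against 15.7%, and in 22.6% of closed ones against 22.7%.

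Of the other strings, AP-1, FOX, TEAD and NFI strings ran in the same direction between opened and closed peaks in the pathway as in the whole lists. AP-1 strings were in 14.1% of opened pathway peaks (Wilson 95% interval 10.9 to 18.1, against 10.6% of all opened) and in 27.2% of closed ones (21.4 to 33.8, against 26.4% of all closed). TEAD strings ran the other way, with 18.01% of opened and 8.72% of closed pathway peaks, against 18.1% of all opened and 8.77% of all closed peaks. FOX strings were in 6.65% and 11.8%, against 6.84% and 9.70%. NFI half-sites were in 16.9% and 12.3%, against 18.01% and 13.5%, and NKX2 strings in 4.16% and 6.15%, against 6.67% and 5.03%. Acvr2a held 6 of the 12 closed peaks with an NKX2 string, and without it the pathway shares were 3.99% of opened and 3.97% of closed peaks. At single genes the strings were uneven. AP-1 strings were in 8 of the 20 opened Tgfb2 peaks and in none of the 24 opened Smad6 peaks, and TEAD strings in 6 of the 25 opened Tgfbr2 peaks and 5 of the 24 opened Smad6 peaks. Of the 44 closed Acvr2a peaks, 10 held an AP-1 string.

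**Figure D5:**
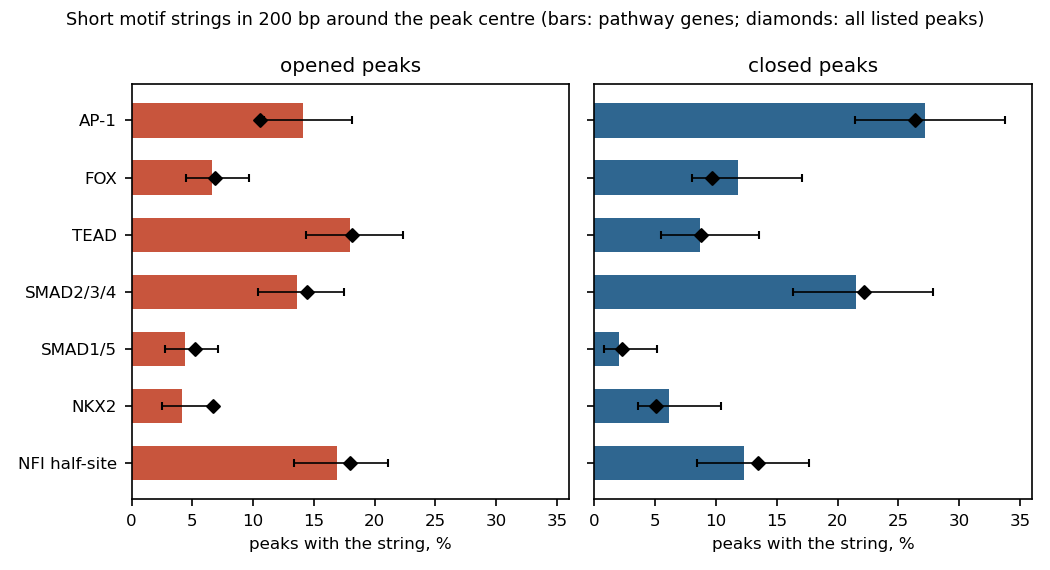
Percentage of opened (left, red) and closed (right, blue) pathway peaks with each of the 7 motif strings in the 200 bp around the centre, with Wilson 95% intervals as whiskers, and of all peaks of the same list as black diamonds. The TEAD bar is longer among opened peaks (18.01% against 8.72%) and the AP-1 bar among closed peaks (27.2% against 14.1%).

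Genes around the core set were read in the same way. Among 55 other components of the pathway in the annotation, 44 had a listed peak, with 193 opened and 162 closed peaks (54.4% opened), and 22 genes had more opened and 18 more closed ones. This opened share was near the 50.8% of all listed peaks. Opened peaks prevailed at Rgmb, a BMP co-receptor gene (18 opened, 0 closed), at Itgb6, whose integrin activates latent TGF-beta (14 and 1), and at Thbs1, another activator of the latent form (20 and 8). Closed peaks prevailed at Bmper, which codes for a BMP-binding modulator (1 opened, 23 closed), and at the SMAD-interacting repressor gene Zeb2 (9 and 26). At 15 well-known target genes there were 111 opened and 48 closed peaks (69.8% opened), and 12 of the 15 had more opened ones, where 50.8% of all listed peaks were opened and 54.9% of all coding genes with a peak had more opened ones. These included the BMP targets Id1 (9 opened, 0 closed) and Id2 (28 and 8) and the TGF-beta target Ccn2 (12 and 3), while Runx2 (5 and 14) and Snai2 (0 and 2) had more closed ones. The members of this wider list were named here after their values were seen.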

How the data were processed

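ATAC-seq reads were aligned by the authors with Bowtie2 2.3.4.1 to mm10, per the labels' processing notes, and peaks were called with MACS2, merged across samples and counted per sample. The series holds 16 samples, which are the 8 libraries on 2 lanes each. The paper does not state whether lanes were combined before the comparison. The adjusted p limit of the lists could therefore count lanes, and the 2 pairs of mouse 524, as replicates. The deposited lists come from DESeq2 1.28.1 run by the authors on those counts. They hold, for each region, the mean normalized count over all libraries (a signal averaged by the authors), and the authors' log2 fold change with its error, statistic, p-value and adjusted p-value. These deposited log2 and p-value columns were read only to check the limits of each list: 0 regions lay outside a log2 fold of 1 or an adjusted p of 0.001, and 0 regions were repeated. They were not otherwise used. Depth per library is unknown from these files, and without values per sample neither the spread between libraries nor a test could be computed.

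Each peak of both lists was assigned by its centre to the nearest protein-coding start site (GENCODE vM21 basic annotation, GRCm38), and the lists were pooled. Motif strings were counted in the 200 bp around each peak centre, also where the peak was narrower, on GRCm38.p6 sequence. A gene's highest peak was taken by mean count, and for some peaks the level per kb of width is given as well. Shares have Wilson 95% intervals, which cover counting only and treat peaks as independent. Nearest-start and interval steps were tested on simulated data. Python 3.11.15, pandas 2.3.3, numpy 2.4.6 and scipy 1.17.1 were used.

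Given in detail were the 20 genes with the most peaks (ties included), each gene with a promoter peak and each gene without a peak; the remaining genes are given by their counts. For sequences, promoter peaks and distal peaks with the highest count per kb or with listed strings were eligible, 11 were extracted and 8 are printed. Some planned items are not reported here. The 47 genes, their roles and all lists were chosen with earlier results of these data known. Alternatives were other ways of assigning peaks, merging peaks, a minimum mean count, leaving out chromosome 11 or Acvr2a, a wider promoter and whole peaks for motif strings.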

Additional observations from a re-analysis of the deposited data

How the results depend on the processing

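Of 79 alternative values for 25 results, 60 stayed within 1.5 times the reported count or median distance, or within the 95% interval of the reported share, and 19 moved further. Opened peaks remained the larger share under each assignment tried. Limiting the distance to 100 kb left 103 closed peaks and 71.5% opened. Requiring the peak to lie in the gene or within 10 kb of it gave 205 opened and 73 closed peaks (73.7% opened), and the nearest start of any gene type gave 146 and 56 (72.3%). A mean count of at least 20 left 120 closed peaks and 2 closed promoter peaks, and leaving out Acvr2a gave 69.9% opened. Leaving out Acvr2a also took the median distance of closed peaks from 87.6 to 52.7 kb and their share over 100 kb away from 47.2% to 34.4%, an alternative chosen after seeing the data, and it left NKX2 strings in 3.97% of closed and 3.99% of opened peaks, so that they were no longer more frequent in closed peaks. With promoters widened to 3 kb there were 53 opened promoter peaks. Searching whole peaks raised the shares of opened peaks with the TEAD (26.0%), SMAD2/3/4 (22.4%), SMAD1/5 (8.03%) and NFI (23.3%) strings and of closed peaks with the NFI string (17.9%), with more sequence searched in wide peaks and less in narrow ones. Stricter fold or p limits were not tried because those columns were not used. No paired analysis was possible because the deposited values are pooled over all samples and no result comes from a test, and leaving out a replicate was not possible for the same reason.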
